A study of Mus musculus with 288 samples.

Results

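This section covers 43 lysosome and proton pump genes among the 23481 genes of the count table, chosen by name as lysosomal hydrolases, lumenal and membrane proteins, their transcription factors and subunits of the vacuolar proton pump. Cathepsins and Atp6v0d2 were left out of the set. All 43 were present: 12 hydrolases, 3 activators or lumenal proteins, 10 membrane proteins, 3 transcription factors and 15 genes of the V-ATPase (5 of its V0 sector, 8 of its V1 sector and 2 accessory proteins). The cells were bone marrow-derived macrophages of C57BL/6 mice aged 12 weeks, grown out of marrow with M-CSF for 7 days. They were pretreated for 24 h with 100 nM dCA or with 1 µM BRD-6989, or were given DMSO, for which the labels state no duration. Both dCA and BRD-6989 are inhibitors of CDK8, a kinase of the Mediator complex that bridges transcription factors and RNA polymerase II. They then received LPS, MDP_LPS, Pam3cys, CpG, R848, FLA, Zymosan, TDB, MDP, Poly(I:C) or SeV, or no stimulus (NoStim), and were taken at 15, 30, 45, 60, 90, 120, 150 or 180 min. The experiment asks how CDK8 inhibition changes the transcriptome of macrophages before and during innate stimulation.

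Lysosomes are the acidic compartments in which macrophages degrade what they engulf and what autophagy delivers. Their hydrolases work at low pH, which the V-ATPase maintains: its V1 sector hydrolyses ATP in the cytosol and drives protons through the V0 sector in the membrane. TFEB, TFE3 and MITF are related transcription factors that bind short E-box sequences, CACGTG at their core, in front of many lysosomal genes. Their activity is set largely by release from the lysosome surface into the nucleus, so their mRNA is not a measure of it.

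Every combination of pretreatment, condition and time was 1 well, with 21810 to 70797 transcript tags (UMI) after the rRNA precursor Rn45s was set aside. Levels are given as CPM, the UMI of a gene per 1000000 of the remaining UMI. The UMI come from transcript 3′ ends, so a level is not scaled by gene length. The 3 pretreatments lay on 3 plates that were indexed separately, which means that an effect of the inhibitor cannot be told apart from one of the plate. Each stimulus was a plate column and each time a plate row, the same on all 3 plates, so stimulus and time cannot be told apart from position. The labels name no separate cultures or animals, so p-values measure only the spread between these wells. Rn45s took 49.0% ± 7.04 of the UMI in dCA wells, 43.6% ± 6.75 in BRD-6989 wells and 52.7% ± 6.88 in DMSO wells (SD, n = 96 each). Macrophage markers were abundant, with 9 of 10 listed genes in the table and 3884, 4138 and 4215 summed CPM under dCA, BRD-6989 and DMSO. Markers of basophils, mast cells and erythroid cells had 0 UMI, and those of T cells, B cells, dendritic cells and stroma summed to at most 22.6 CPM in any pretreatment. The neutrophil list summed to 4.17 CPM under dCA, 2.54 under BRD-6989 and 35.0 under DMSO, and its part in the results was not tested. As in any bulk sample, fewer cells of a type and less RNA per cell cannot be told apart.

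The set was well covered. Grn, which encodes the lysosomal chaperone and growth factor precursor progranulin, gave 44784 UMI over all wells, 23.6% of the UMI of the set. Psap, the precursor of the saposins that help hydrolases reach their lipids, gave 14243, and Atp6v1a, the catalytic subunit of the pump, gave 10852. At the other end Tfeb gave 228 UMI, the calcium channel gene Mcoln1 135 and the cystine exporter gene Ctns 68. Mcoln1 and Ctns did not pass the filter on low counts in the comparison of the inhibitors, which therefore covers 41 of the 43 genes.

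Summed over all 43 genes, the level was 16836 ± 815 CPM in dCA libraries, 15903 ± 1139 in BRD-6989 libraries and 16933 ± 801 in DMSO libraries (SD, n = 12 conditions each, 8 times summed). It was lower under BRD-6989 than under DMSO in 12 of 12 conditions, and under dCA it was lower in 7. Without Grn, a sum added after the values were seen, the direction turned. The other 42 genes reached 12582 ± 935 CPM under dCA, 12826 ± 1055 under BRD-6989 and 12341 ± 950.2 under DMSO. They were above DMSO in 10 of 12 conditions under BRD-6989 and in 7 of 12 under dCA. That sum holds genes that rose, such as Lipa (mean 691 CPM under BRD-6989, 332 under DMSO), Atp6v1a (1018 and 809) and Lgmn (563 and 396). It does not show a rise across the set. Of the 41 tested members, 20 had positive and 21 negative log2 changes under BRD-6989, and 18 and 23 under dCA. For the 15 pump genes alone the sums were 3270 ± 249 under dCA, 3306 ± 181 under BRD-6989 and 3133 ± 245 under DMSO, with overlapping groups.

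The effect of dCA was compared with DMSO over all 36 summed libraries, with the 12 conditions as blocks (edgeR's quasi-likelihood test, Benjamini-Hochberg adjustment over 7785 genes). Of the 41 tested members 6 rose and 0 fell, where 7.48% of all genes rose, 5.95% fell and 13.4% passed in either direction. The 6 were the hydrolases Lipa and Lgmn, the lumenal protein Npc2, the membrane protein Cd68 and the pump subunits Atp6v0a1 and Atp6v1a. The median log2 change of the 41 was -0.05, against -0.01 over all genes. Under BRD-6989, tested against the same DMSO libraries, 7 members rose and 3 fell, where 7.94% of all genes rose, 7.42% fell and 15.4% passed in either direction. Lipa, Lgmn, Cd68, Atp6v0a1, Atp6v1a, Atp6v1c1 and Mitf rose, and Grn, Laptm5 and Atp6v0c fell. The median was -0.01, against 0.01 over all genes.

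**Figure D1:**
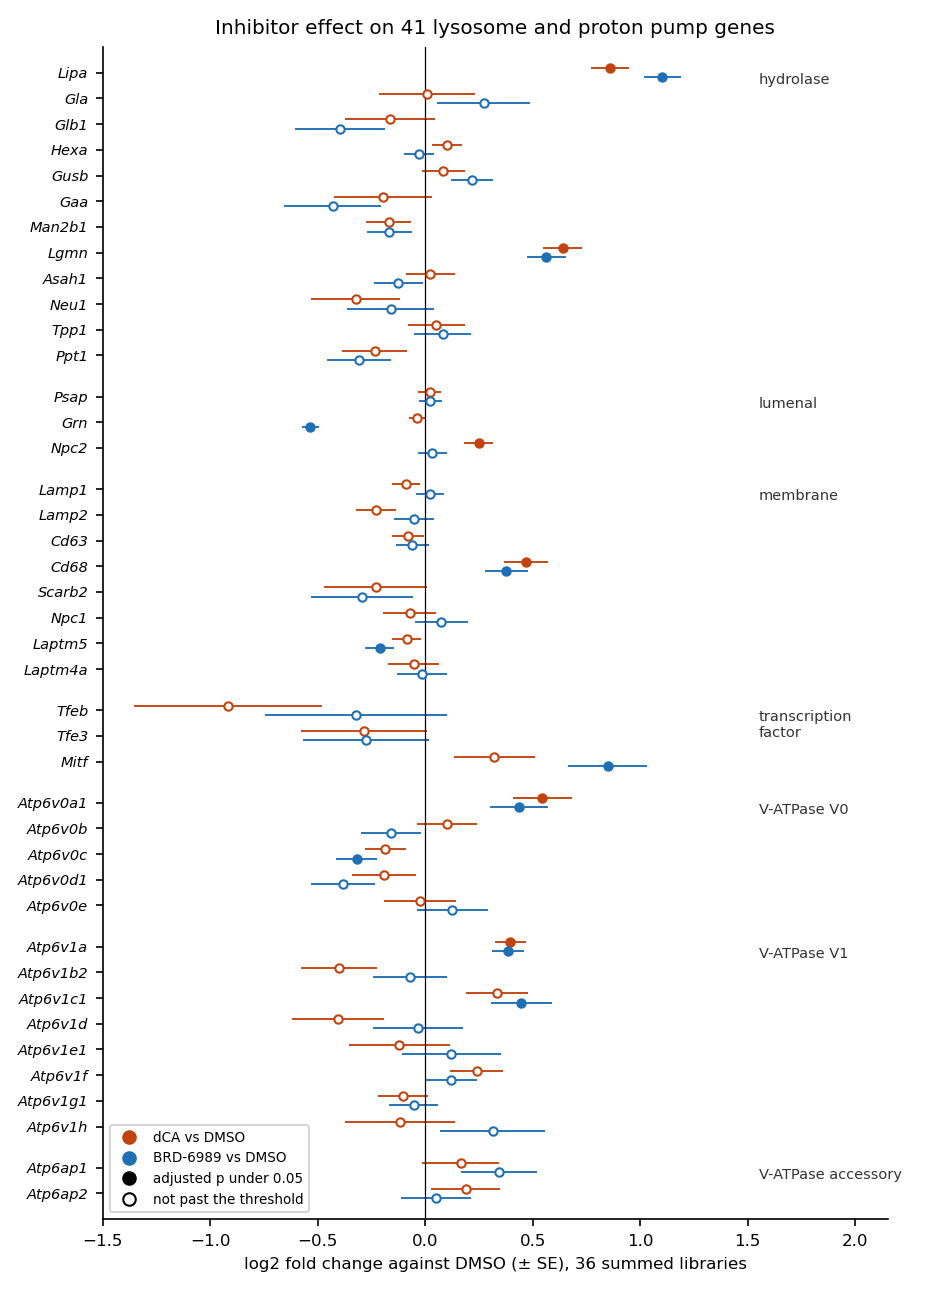
Log2 fold change of each of the 41 tested members under dCA and under BRD-6989 against DMSO, grouped by role. Points are estimates from the 36 summed libraries, bars are ± 1 SE and filled points passed the threshold. Lipa stands at the right under both inhibitors (0.86 and 1.10), and Grn is left of 0 under BRD-6989 (-0.53) and near 0 under dCA (-0.04).

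Among the hydrolases, Lipa moved most. It encodes lysosomal acid lipase, which releases cholesterol and fatty acids from engulfed lipoproteins. Lipa had 423 to 759.8 CPM in dCA libraries with a median of 565, 579.9 to 809.8 with a median of 664 in BRD-6989 libraries, and 261 to 455 with a median of 318 in DMSO libraries. The BRD-6989 and DMSO libraries did not overlap, while the lowest dCA library lay below the highest DMSO library; under each inhibitor Lipa was above DMSO in 12 of 12 conditions. Non-overlap of the 12 BRD-6989 and 12 DMSO libraries occurred in 1.05% of tested genes, and of the dCA and DMSO libraries in 0.655%. The log2 change of Lipa was 0.86 ± 0.09 under dCA (edgeR adjusted p = 2.02e-11) and 1.10 ± 0.09 under BRD-6989 (edgeR adjusted p = 1.78e-15).

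Lgmn, the asparagine-specific protease legumain that processes other lysosomal enzymes, had 463 to 744 CPM in dCA libraries, 411 to 682 in BRD-6989 libraries and 219.6 to 538 in DMSO libraries. The groups overlapped, yet Lgmn was above DMSO in 12 of 12 conditions under each inhibitor. It rose by 0.64 ± 0.09 on the log2 scale under dCA (edgeR adjusted p = 2.08e-07) and by 0.56 ± 0.09 under BRD-6989 (edgeR adjusted p = 2.38e-06). The other 10 hydrolases did not pass the threshold under either inhibitor. They are Gla, Glb1, Hexa, Gusb, Gaa and Man2b1, which remove sugars from glycolipids, glycogen and glycoproteins, the sialidase Neu1, the ceramidase Asah1, the peptidase Tpp1 and the thioesterase Ppt1. Their log2 changes lay between -0.32 (Neu1) and 0.10 (Hexa) under dCA and between -0.43 (Gaa) and 0.27 (Gla) under BRD-6989. Under BRD-6989 Asah1 passed as lower with read counts in place of UMI counts (-0.38, edgeR adjusted p = 0.0298). Ppt1 did so there without the Zymosan libraries (-0.42, edgeR adjusted p = 0.0473).

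Of the lumenal proteins, Grn separated the inhibitors. Grn had 3768 to 4601 CPM in dCA libraries with a median of 4260.5, 2690.4 to 3442 with a median of 3109 in BRD-6989 libraries, and 3926 to 5256 with a median of 4710.5 in DMSO libraries. Every BRD-6989 library lay below every dCA library and every DMSO library. The log2 change was -0.53 ± 0.04 under BRD-6989 (edgeR adjusted p = 4.47e-16) and -0.04 ± 0.04 under dCA (edgeR adjusted p = 0.666). Set against each other directly, at doses that differ, dCA and BRD-6989 libraries differed in 1.95% of the genes tested and in 1 of the 41 members. That member was Grn, higher under dCA by 0.50 ± 0.04 (edgeR adjusted p = 7.30e-14) and in 12 of 12 conditions; the 12 libraries of each inhibitor did not overlap for 0.0642% of tested genes.

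Npc2, which hands cholesterol from the lysosomal lumen to the membrane, had 707 to 1184 CPM in dCA libraries, 607 to 917 in BRD-6989 libraries and 630.0 to 952 in DMSO libraries. Its rise under dCA was 0.25 ± 0.07 on the log2 scale (edgeR adjusted p = 0.00776), in 9 of 12 conditions, while under BRD-6989 the change was 0.03 ± 0.07 and did not pass. Psap had log2 changes of 0.02 ± 0.05 under each inhibitor. Without the scaling factors between libraries the call of Npc2 under dCA was lost (edgeR adjusted p = 0.0781). That call was also lost with the Rn45s share as a covariate, in wells of 15 to 45 min and in single wells. It held in 18 of 22 alternatives, with an edgeR adjusted p of at most 0.292.

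Among the membrane proteins, Cd68 rose. Cd68 is a heavily glycosylated macrophage scavenger receptor relative of the LAMP family and also one of the listed macrophage markers. It had 418 to 764 CPM in dCA libraries, 423 to 783 in BRD-6989 libraries and 329.8 to 553 in DMSO libraries. The log2 changes were 0.47 ± 0.10 under dCA (edgeR adjusted p = 5.50e-04) and 0.38 ± 0.10 under BRD-6989 (edgeR adjusted p = 0.00555), with Cd68 above DMSO in 10 and 9 of 12 conditions. With read counts in place of UMI counts both calls were lost (edgeR adjusted p = 0.116 under dCA and 0.462 under BRD-6989). The Cd68 call under BRD-6989 was also lost with the Rn45s share as a covariate and in wells of 15 to 45 min.

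Laptm5, a lysosomal membrane protein of blood cells that sorts receptors for degradation, had 587 to 1057 CPM in BRD-6989 libraries and 683 to 1302 in DMSO libraries. It fell by 0.21 ± 0.07 on the log2 scale under BRD-6989 (edgeR adjusted p = 0.0212), in 11 of 12 conditions, and the call held in 15 of 22 alternatives; it was lost without the MDP libraries (edgeR adjusted p = 0.0634), with read counts (0.366) and without the condition block (0.134), among others. Under dCA its change was -0.09 ± 0.07. Lamp1 and Lamp2, the most abundant glycoproteins of the lysosomal membrane, did not pass: Lamp1 changed by -0.09 ± 0.07 under dCA and 0.02 ± 0.07 under BRD-6989, and Lamp2 by -0.23 ± 0.09 and -0.06 ± 0.09 (edgeR adjusted p from 0.107 to 0.877 over these 4 changes). Lamp2 under dCA passed as lower without TMM (-0.30, edgeR adjusted p = 0.0219), in single wells (0.0143) and without the SeV libraries (0.0232). The tetraspanin Cd63, the cholesterol transporter Npc1, the glucocerebrosidase receptor Scarb2 and Laptm4a did not pass under either inhibitor.

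In the V-ATPase, 2 of 15 genes rose under dCA, and 3 rose and 1 fell under BRD-6989. Over all genes 7.48% rose under dCA, and 7.94% rose and 7.42% fell under BRD-6989. The medians of the 15 log2 changes were -0.02 and 0.12. Atp6v1a, the subunit that hydrolyses ATP, had 754 to 1192 CPM in dCA libraries with a median of 1004, 857 to 1177 with a median of 991 in BRD-6989 libraries, and 611 to 1006 with a median of 816 in DMSO libraries. The ranges overlapped, and Atp6v1a was above DMSO in 10 of 12 conditions under dCA and 11 of 12 under BRD-6989. It rose by 0.40 ± 0.07 on the log2 scale under dCA (edgeR adjusted p = 4.89e-05) and by 0.38 ± 0.07 under BRD-6989 (edgeR adjusted p = 5.86e-05).

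Atp6v0a1, which forms the proton path of V0, had 152 to 386 CPM in dCA libraries, 223 to 334 in BRD-6989 libraries and 93.6 to 286 in DMSO libraries. It was above DMSO in 11 of 12 conditions under each inhibitor. The rises were 0.54 ± 0.14 under dCA (edgeR adjusted p = 0.00319) and 0.44 ± 0.14 under BRD-6989 (edgeR adjusted p = 0.0192). Under BRD-6989 the call was lost without the NoStim libraries (edgeR adjusted p = 0.0832) or without the CpG libraries (0.0557). There it was also lost with the Rn45s share as a covariate. In wells of 15 to 45 min it was lost under both inhibitors.

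Atp6v0c, whose copies build the rotating proton-binding ring of V0, went the other way. It had 276 to 390.1 CPM in BRD-6989 libraries and 299 to 535 in DMSO libraries, and 255 to 468 in dCA libraries. It fell by 0.32 ± 0.09 under BRD-6989 (edgeR adjusted p = 0.0127), in 11 of 12 conditions, and changed by -0.19 ± 0.10 under dCA without passing. In single wells its fall under dCA passed (-0.26, edgeR adjusted p = 0.0132). The call under BRD-6989 was lost with read counts (edgeR adjusted p = 0.111), in wells of 60 to 180 min (0.341) and with the Rn45s share as a covariate. Atp6v1c1, which links V1 to V0, rose by 0.45 ± 0.14 under BRD-6989 (edgeR adjusted p = 0.0230), in 11 of 12 conditions. That call held in 16 of 22 alternatives and was lost without the LPS libraries (edgeR adjusted p = 0.0741), without a filter (0.0570) and without the condition block (0.0513), among others, and its change of 0.33 ± 0.14 under dCA did not pass. The other V0 genes (Atp6v0b, Atp6v0d1, Atp6v0e), the other V1 genes (Atp6v1b2, Atp6v1d, Atp6v1e1, Atp6v1f, Atp6v1g1, Atp6v1h) and the accessory proteins Atp6ap1 and Atp6ap2 did not pass under either inhibitor by edgeR over the summed libraries. Fitted on single wells, Atp6v1b2 passed as lower under dCA (-0.48, edgeR adjusted p = 0.0439). By DESeq2 Atp6v0d1, which couples V1 to the ring, passed as lower under BRD-6989, at -0.41 ± 0.14 (DESeq2 adjusted p = 0.0299), as it did by edgeR without TMM (0.0412), in single wells (0.0483) and without the MDP_LPS, Zymosan or SeV libraries (0.0340 to 0.0496). Atp6ap2 changed by 0.19 ± 0.16 under dCA and 0.05 ± 0.16 under BRD-6989.

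**Figure D2:**
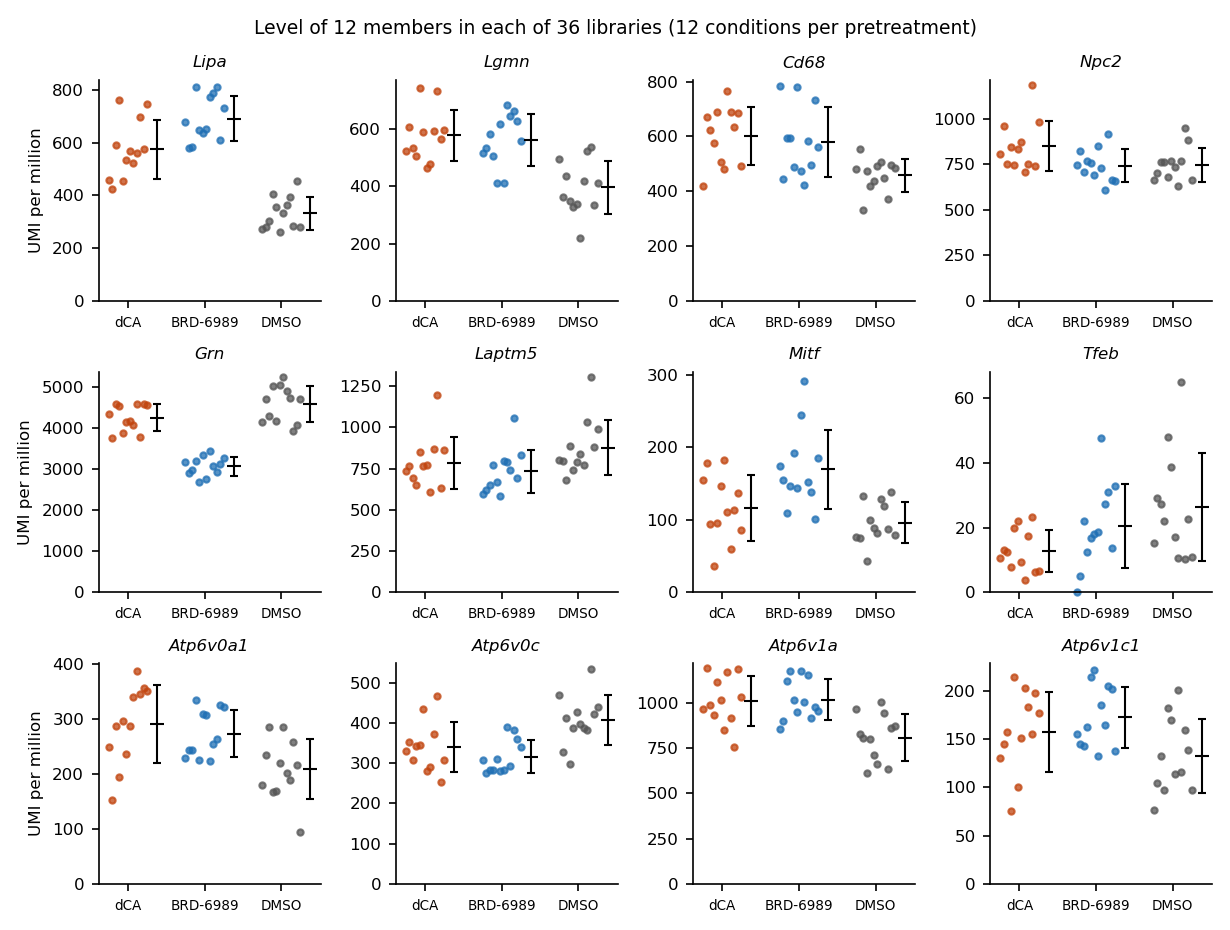
CPM of 12 members in each of the 36 summed libraries, by pretreatment. Each point is 1 condition summed over 8 times, and the bar beside each group is the mean ± SD (n = 12). BRD-6989 libraries of Lipa lie at 579.9 and above, all over the DMSO libraries, and those of Grn at 3442 and below, all under the DMSO and dCA libraries.

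The share of Rn45s moved with the pretreatment, as given above. With that share of each library as a covariate, 5 members passed under dCA (4 higher and 1 lower) and 2 under BRD-6989 (1 higher and 1 lower), where 6 and 10 had passed without it. Over all genes 7.14% passed under dCA and 2.17% under BRD-6989 with the covariate. Under that setting Lipa kept changes of 0.86 (edgeR adjusted p = 3.59e-08) under dCA and 1.11 (edgeR adjusted p = 1.37e-04) under BRD-6989, Grn changed by -0.20 under BRD-6989 (edgeR adjusted p = 0.194), and Mitf by 0.02. The member that fell was Ppt1 under both inhibitors, by 0.68 and 1.41 on the log2 scale (edgeR adjusted p = 0.00682 and 0.00294).

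Of the transcription factors only Mitf passed, under BRD-6989. Mitf had 35.8 to 183 CPM in dCA libraries with a median of 112, 101 to 292 with a median of 153 in BRD-6989 libraries, and 44.0 to 139 with a median of 88.3 in DMSO libraries. It rose by 0.85 ± 0.18 on the log2 scale under BRD-6989 (edgeR adjusted p = 4.42e-04), in 10 of 12 conditions, and its change of 0.32 ± 0.19 under dCA did not pass (edgeR adjusted p = 0.321). Tfeb rested on few counts, 47 UMI over all dCA wells, 88 over BRD-6989 wells and 93 over DMSO wells. Its levels ran from 3.82 to 23.4 CPM in dCA libraries, from 0 to 47.6 in BRD-6989 libraries and from 10.3 to 65.0 in DMSO libraries. Tfeb changed by -0.92 ± 0.44 under dCA, lower in 11 of 12 conditions, and by -0.32 ± 0.42 under BRD-6989, and neither change passed (edgeR adjusted p = 0.185 and 0.705). Tfe3, with 129, 159 and 171 UMI under dCA, BRD-6989 and DMSO, changed by -0.28 ± 0.29 under each inhibitor.

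The same wells carried 58 reporters, read by TF-seq, an assay in which tagged reporter constructs for different transcription factors are counted together in 1 cell population. One is named TFEB_28; the sequence of its sites was not used here. Its counts were taken relative to all reporters, with 716 to 8354 reporter reads per well. TFEB_28 gave 15.2 to 27.9 reads per 1000 reporter reads in dCA libraries, 15.4 to 28.5 in BRD-6989 libraries and 12.0 to 25.8 in DMSO libraries. It was above DMSO in 12 of 12 conditions under each inhibitor, although the ranges over conditions overlapped. The log2 change was 0.25 ± 0.04 under dCA (edgeR adjusted p = 1.06e-08) and 0.26 ± 0.04 under BRD-6989 (edgeR adjusted p = 4.26e-09), where 36.2% of the reporters passed in each comparison. Between the inhibitors TFEB_28 changed by -0.01 ± 0.03, where 3.45% of the reporters passed. Relative to the minimal promoter reporter minP_58 alone, a setting chosen after seeing the data, the changes were 0.25 ± 0.06 under dCA (edgeR adjusted p = 5.96e-04) and 0.29 ± 0.06 under BRD-6989 (edgeR adjusted p = 2.52e-05), in 11 of 12 conditions each.

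**Figure D3:**
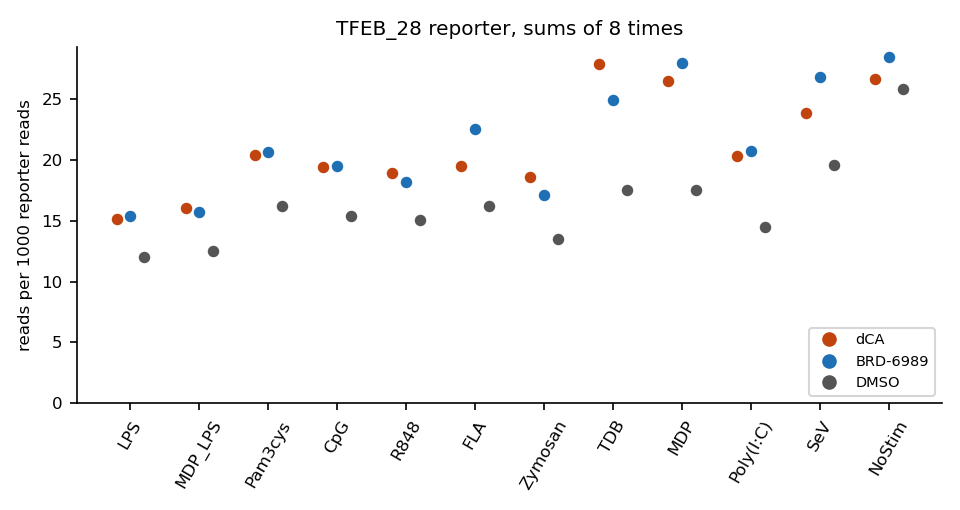
TFEB_28 reporter reads per 1000 reporter reads in each of the 36 libraries summed over 8 times, by condition, with dCA, BRD-6989 and DMSO side by side. The inhibitor points lie above the DMSO point in each of the 12 conditions. LPS has the lowest DMSO value (12.0) and NoStim the highest (25.8).

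Against NoStim the TFEB_28 reporter was lower with 8 of the 11 stimuli, from -0.67 ± 0.08 with LPS to -0.37 ± 0.08 with Pam3cys and with FLA on the log2 scale, and its changes with TDB (-0.13 ± 0.08), MDP (-0.09 ± 0.08) and SeV (-0.10 ± 0.08) did not pass. Many reporters differed: 37.9% of the 58 passed with LPS, 31.0% with MDP_LPS, 24.1% with Pam3cys, 17.2% with CpG and with R848, 19.0% with FLA, 31.0% with Zymosan, 1.72% with TDB, 8.62% with MDP, 22.4% with Poly(I:C) and 20.7% with SeV. These 8 kept their direction and stayed past the threshold relative to minP_58, a scaling that moved the median of all reporters by between -0.19 (Pam3cys) and -0.07 (Poly(I:C)). Being relative to the other reporters, these values do not separate a fall of TFEB_28 from a rise of the rest.

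The promoters of the set were searched for CACGTG, the E-box core, in the 250 bases before each listed start site (RefSeq promoters, GRCm38.p6; the motif is its own reverse complement, so both strands are covered). A promoter was listed for 37 of the 43 members. The motif was present in 8 of these 37 genes (21.6%), against 6.86% of 27025 genes with a listed promoter, and the same 8 of the 37 also held TCACGTG on either strand, against 3.58% of the 27025. The 8 are Lamp1, Atp6v0b, Gla, Mcoln1, Atp6v1a, Gaa, Glb1 and Lgmn. A match is a description of these letters and not evidence of binding. Of the 8, Lgmn and Atp6v1a rose under both inhibitors, Mcoln1 was not tested and the other 5 did not pass under either. The stretches below show these 2 called genes with the motif, called genes without it (Lipa, and Mitf at the first of its 3 listed starts), and Lamp1, which holds 4 copies, did not pass in either comparison and was added after its values were seen; capitals mark CACGTG, and each runs 5′ to 3′ on the gene's strand.
Lgmn (chr12:102439093-102439198, minus strand): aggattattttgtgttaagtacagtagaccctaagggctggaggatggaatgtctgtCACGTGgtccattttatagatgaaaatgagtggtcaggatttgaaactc
Atp6v1a (chr16:44139328-44139447, minus strand): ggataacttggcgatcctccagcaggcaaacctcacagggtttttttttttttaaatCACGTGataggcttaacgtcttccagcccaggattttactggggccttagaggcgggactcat
Lamp1 (chr8:13159080-13159160, plus strand): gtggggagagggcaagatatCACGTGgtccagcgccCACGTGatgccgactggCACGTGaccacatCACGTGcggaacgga
Lipa (chr19:34527475-34527594, minus strand): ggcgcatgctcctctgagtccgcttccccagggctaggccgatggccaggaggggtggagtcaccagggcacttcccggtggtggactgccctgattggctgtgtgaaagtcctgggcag
Mitf (chr6:97806938-97807057, plus strand): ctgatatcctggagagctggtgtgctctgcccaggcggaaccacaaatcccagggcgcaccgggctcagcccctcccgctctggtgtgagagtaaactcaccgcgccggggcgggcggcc

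The Lgmn motif starts 49 bases before one of 2 listed starts, the other of which has no CACGTG in its window. The Atp6v1a motif starts 131 bases before its listed start, and the 4 copies of Lamp1 start 61, 45, 28 and 15 bases before theirs. Those of Lgmn and Atp6v1a lie inside the annotated genes, whose 5′ ends are at 102439728 and 44139702 on the minus strand. Lipa, which rose most, held no CACGTG in this window.

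In the NoStim wells alone (24 wells, the 8 times as blocks), Lipa rose under both inhibitors. Lipa had 252 to 1110.2 CPM in the 8 dCA wells with a median of 794, 394 to 1216 with a median of 629.98 in the 8 BRD-6989 wells, and 106 to 467 with a median of 296 in the 8 DMSO wells. The log2 changes were 1.47 ± 0.32 under dCA (edgeR adjusted p = 7.78e-04) and 1.504 ± 0.31 under BRD-6989 (edgeR adjusted p = 4.31e-04), where 0.908% and 1.06% of all genes passed. Under dCA, 2 of the 40 members tested passed, the second being Atp6v0a1. It had 165 to 508 CPM in dCA wells, 84.8 to 639 in BRD-6989 wells and 30.6 to 144 in DMSO wells, so every dCA well lay above every DMSO well. Over all genes, 0.240% of those tested did not overlap between these wells in either direction. Atp6v0a1 rose by 1.87 ± 0.52 under dCA (edgeR adjusted p = 0.0413), a call that was lost in 7 of 8 fits that left out 1 time, and by 1.71 ± 0.53 without passing under BRD-6989 (edgeR adjusted p = 0.0849). Under BRD-6989, 2 of 40 passed, Lipa higher and Grn lower. Grn had 2420 to 4056 CPM in BRD-6989 wells and 3385 to 6610 in DMSO wells and changed by -0.48 ± 0.11 (edgeR adjusted p = 0.00333), a call that was lost without the 90 min wells.

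A change of the inhibitor effect by stimulation was tested directly, as the effect in stimulated minus that in NoStim libraries of 60 to 180 min. There was 1 NoStim library per pretreatment, assumed to vary like the others, so a lack of calls does not show an unchanged effect. Of 41 members 0 passed for dCA and 0 for BRD-6989 by edgeR, and 0 by DESeq2, where 0% of 8034 genes passed by edgeR. At an unadjusted p under 0.05 there were 2 and 1. The largest of these for a called member was Lipa under dCA, at -1.27 ± 0.43 (edgeR adjusted p = 0.930).

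Few members passed with stimulation, where few of all genes did as well. Averaged over the 11 stimuli and set against NoStim at 60 to 180 min, 0 of 41 members passed by edgeR and 0 by DESeq2, and 2 had an unadjusted p under 0.05, while 2.36% of all 6311 genes passed. Single stimuli gave 0 called members for LPS, MDP_LPS, Pam3cys, CpG, R848, FLA, Zymosan, TDB, MDP and SeV by edgeR and by DESeq2, with 1 to 4 members at an unadjusted p under 0.05 for each of these stimuli. Over all genes 3.91% passed with LPS, 3.58% with MDP_LPS, 1.96% with Pam3cys, 1.73% with CpG, 2.52% with R848, 1.05% with FLA, 2.99% with Zymosan, 0.111% with TDB, 0.0792% with MDP and 0.206% with SeV. With Poly(I:C), a double-stranded RNA analogue, 2.58% of all genes and 2 of the 41 members passed, both higher. DESeq2 called 5 members with Poly(I:C), where it called 3.91% of all genes; beside Psap and Npc2 these were Hexa (0.50 ± 0.15), Atp6v1f (0.95 ± 0.32) and Atp6v1g1 (0.94 ± 0.31), all higher.

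The members called by edgeR with Poly(I:C) were Psap and Npc2. Psap had 2233, 2410.0 and 2186 CPM with Poly(I:C) under dCA, BRD-6989 and DMSO, and 975, 969 and 1112 in NoStim. Its rise was 1.22 ± 0.14 on the log2 scale (edgeR adjusted p = 1.32e-09). Over the other 10 stimuli its mean level ran from 864 with Zymosan to 1245 with MDP, so Poly(I:C) stood apart on all 3 plates. Npc2 had 1167, 1086 and 986 CPM with Poly(I:C) under dCA, BRD-6989 and DMSO, and 918, 593 and 617 in NoStim. It rose by 0.68 ± 0.17 (edgeR adjusted p = 0.0105), and the call was lost without the BRD-6989 libraries (edgeR adjusted p = 0.350) or without the DMSO libraries (0.0816). A test of any difference among the 12 conditions passed for 6.39% of all genes and for 3 members, Psap (edgeR adjusted p = 3.98e-11), Npc2 (0.00815) and Laptm5 (0.0175). Laptm5 had 1172, 922 and 1146 CPM with Poly(I:C) under dCA, BRD-6989 and DMSO and 824, 809 and 859 in NoStim, and its call was lost when any 1 of the 3 pretreatments was left out (edgeR adjusted p from 0.149 to 0.406). That of Npc2 was lost without dCA (0.263) or BRD-6989 (0.371).

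The difference in Psap was already there at the first time. Its mean with Poly(I:C) was 2497 CPM at 15 to 45 min and 2276 at 60 to 180 min, against 1133 and 1019 in NoStim. Poly(I:C) lay in the same plate column on all 3 plates, so its effect cannot be told apart from position. At 15 min Psap had 2577, 2664 and 1812 CPM in the Poly(I:C) wells of the dCA, BRD-6989 and DMSO plates, and 887, 767 and 1074 in their NoStim wells. Over all times the 24 Poly(I:C) wells ran from 1498 to 3114 with a median of 2444, and the other 264 wells from 498 to 1887 with a median of 1113, so that single wells overlapped. In the wells of 15 to 45 min alone, a setting chosen after seeing the data, Psap rose by 1.18 ± 0.17 with Poly(I:C) (edgeR adjusted p = 6.58e-06), where 0.720% of 4859 genes passed, and it was the sole member called for Poly(I:C). Poly(I:C) libraries also had low shares of Rn45s, 39.2% under dCA, 35.2% under BRD-6989 and 44.4% under DMSO, against 52.6%, 46.1% and 54.5% in NoStim. With the Rn45s share as a covariate, also chosen after seeing the data, 0.505% of all genes passed, Psap rose by 1.36 ± 0.18 (edgeR adjusted p = 2.73e-07) and Npc2 changed by 0.37 ± 0.23 without passing (edgeR adjusted p = 0.775).

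**Figure D4:**
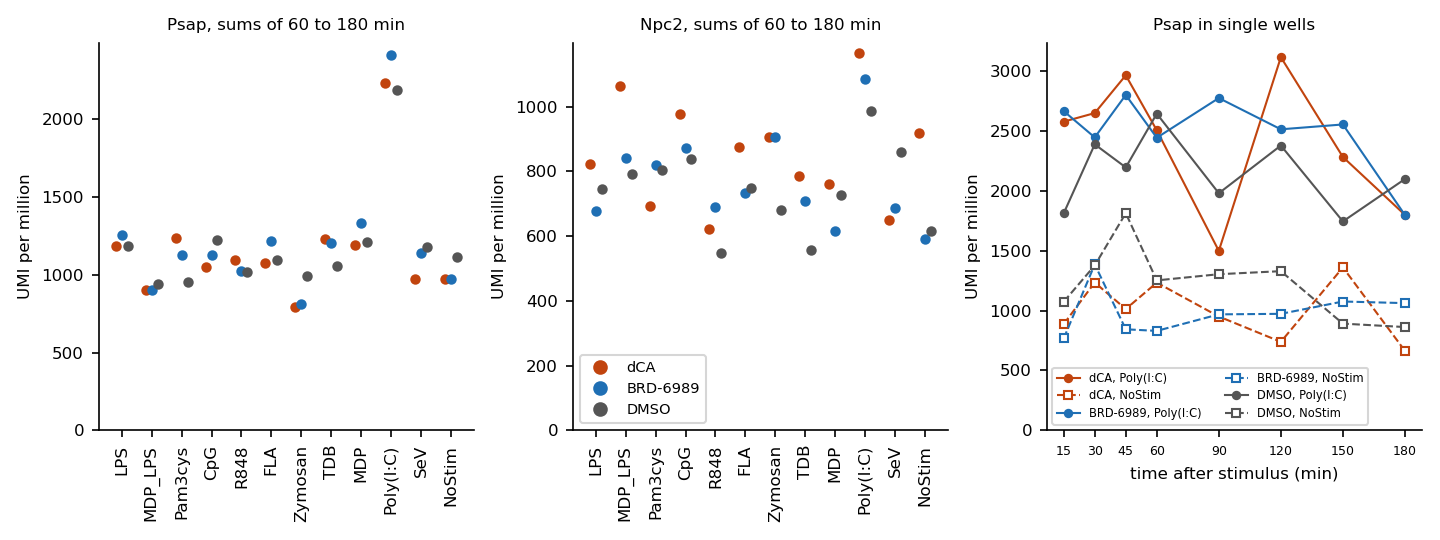
CPM of Psap and of Npc2 in libraries of 60 to 180 min by condition and pretreatment, and of Psap in the single Poly(I:C) and NoStim wells against time in minutes. Psap with Poly(I:C) lies at 2186 to 2410.0 on the 3 plates, with the other conditions at 1333 and below, and its Poly(I:C) wells are above the NoStim wells of the same plate and time from 15 min on.

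Few members had a slope with time that passed, where few of all genes did as well. Summed over the 43 genes in stimulated wells, the level was 16884 ± 409 CPM at 15 min, 17303 ± 833 at 60 min, 16094 ± 704 at 120 min and 15363 ± 459 at 180 min (SD, n = 3 pretreatments). For the 15 pump genes it was 3237 ± 208 at 15 min, 3314 ± 228 at 60 min, 3176 ± 77.6 at 120 min and 2964 ± 110 at 180 min. Per gene, the slope with time in stimulated cells passed for 0 of 41 members by edgeR, with 1 at an unadjusted p under 0.05, where 3.59% of 6692 genes passed; by DESeq2 1 passed, Laptm5, at -0.14 ± 0.04 per hour on the log2 scale. Fitted on single wells, 7 members passed, where 11.6% of all genes did: Atp6v1a, Hexa, Laptm5, Npc1, Psap and Tpp1 fell, by 0.07 to 0.20 per hour, and Mitf rose by 0.26 ± 0.09 per hour (edgeR adjusted p = 0.0487).

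In NoStim cells 1 member had a slope past the threshold, where 0.389% of all genes did. Atp6v1h, a regulatory subunit of V1, changed by 1.40 ± 0.32 per hour on the log2 scale (edgeR adjusted p = 0.0189). It rested on few counts: its UMI in the dCA wells were 0, 2, 1, 3, 0, 1, 4 and 1 from 15 to 180 min, in the BRD-6989 wells 0, 0, 0, 0, 7, 5, 0 and 4, and in the DMSO wells 0, 0, 0, 0, 2, 0, 0 and 19. A single DMSO well at 180 min held the 19, and without the DMSO wells the slope was 0.68 per hour (edgeR adjusted p = 0.506). The slope in stimulated minus NoStim cells passed for 0 of 41 members by edgeR, with 2 at an unadjusted p under 0.05, and for 1 by DESeq2, where 0.867% of all genes passed by edgeR.

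**Figure D5:**
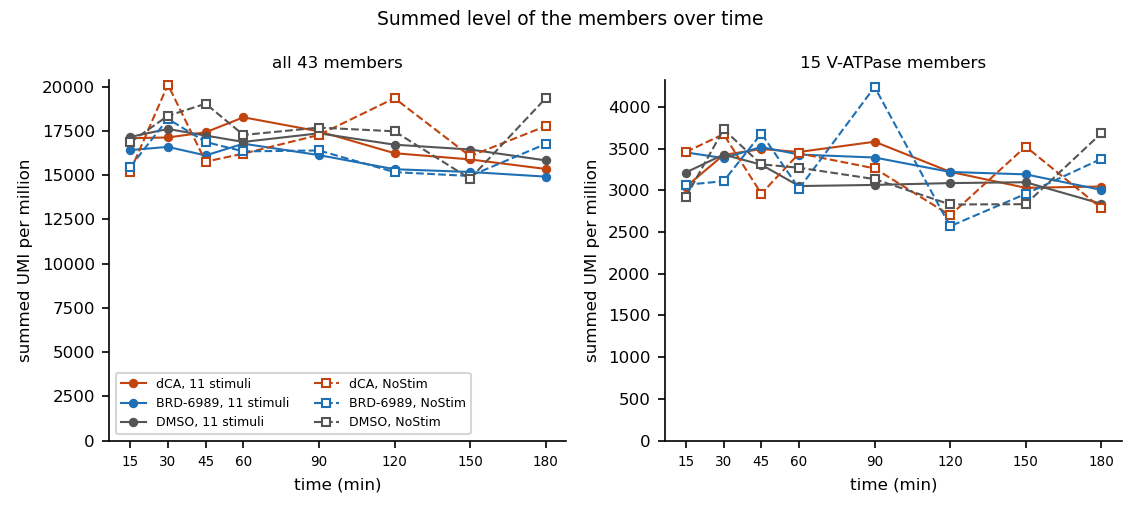
Summed CPM of all 43 members and of the 15 V-ATPase members against time in minutes, for the 11 stimuli together and for NoStim, by pretreatment. In stimulated wells the sum of the 43 lies between 14913 and 18264 at every time, and the single NoStim wells scatter around it between 14792 and 20105.

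Lists of other lysosome-related genes were counted in the same fits; where a gene has a pair of changes with no group named, they are those under dCA and under BRD-6989 in that order. Of 31 other hydrolases and activators tested, 1 rose and 3 fell under dCA, and 2 rose and 5 fell under BRD-6989, against the shares over all genes given above (13.4% under dCA and 15.4% under BRD-6989 in either direction), beside which the counts of all these lists stand. Galc, which degrades galactosylceramide, was higher by 0.88 ± 0.22 with dCA and 0.86 ± 0.21 with BRD-6989, and Lyz2, lysozyme, rose by 0.32 ± 0.05 under BRD-6989. Pla2g15, a lysosomal phospholipase, fell by 1.29 ± 0.29 and 0.77 ± 0.28, the acid nuclease Dnase2a by 0.46 ± 0.14 and 0.74 ± 0.14, and Arsb, arylsulfatase B, by 0.85 ± 0.26 under dCA. Of 23 other membrane proteins 2 rose and 2 fell under dCA, and 2 rose and 3 fell under BRD-6989. Slc37a2, a sugar phosphate transporter, rose by 1.02 ± 0.17 and 0.50 ± 0.17 and the sialic acid exporter Slc17a5 by 0.64 ± 0.19 and 0.89 ± 0.19. Sidt2 fell by 1.06 ± 0.29 and 0.92 ± 0.28, the peptide transporter Slc15a3 by 0.60 ± 0.15 and 0.73 ± 0.15, and Ostm1, a partner of a lysosomal chloride exchanger, by 0.67 ± 0.23 under BRD-6989.

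Of 9 further V-ATPase and assembly genes tested, 2 rose under each inhibitor and 0 fell. Vma21, which assembles V0 in the endoplasmic reticulum, was higher by 0.84 ± 0.13 with dCA and 1.00 ± 0.12 with BRD-6989, and Dmxl1, a pump assembly factor, by 0.57 ± 0.20 and 1.05 ± 0.19. Of 17 genes of mTORC1 and Ragulator, which sense nutrients on the lysosome, 2 rose under dCA and 1 under BRD-6989, and 0 fell. Fnip2, a partner of folliculin, rose by 0.55 ± 0.10 and 0.59 ± 0.10, and Rptor, the mTORC1 scaffold, by 0.91 ± 0.30 under dCA. Of 20 autophagy genes, 2 rose and 1 fell under dCA and 1 rose and 1 fell under BRD-6989; the cargo receptor gene Nbr1 rose by 0.86 ± 0.21 and 0.83 ± 0.21. Gabarapl1, which couples cargo to autophagosomes, rose by 0.80 ± 0.27 under dCA, where Atg5 fell by 0.75 ± 0.24, and Atg3 fell by 0.44 ± 0.16 under BRD-6989; both act in conjugating that protein family to lipid. Of 26 genes of trafficking to the lysosome, 3 rose under each inhibitor and 0 fell. Gnptab, which makes the mannose 6-phosphate tag of hydrolases, rose by 1.20 ± 0.18 and 1.05 ± 0.17 and the receptor of that tag, M6pr, by 0.47 ± 0.12 and 0.42 ± 0.12. The retromer subunit Vps35 rose by 0.39 ± 0.12 under dCA, and Arl8b, a GTPase that moves lysosomes, by 0.79 ± 0.19 under BRD-6989. Over the mean of the 11 stimuli, the autophagy receptor gene Sqstm1 rose by 0.70 ± 0.16 and Ostm1 fell by 1.35 ± 0.36. With time in stimulated cells Sqstm1 rose by 0.40 ± 0.08 per hour and Slc15a3 by 0.38 ± 0.12 per hour, and Vps18, of a tethering complex for fusion with lysosomes, fell by 0.58 ± 0.18 per hour. All changes given here passed the threshold of edgeR's test over all genes.

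For reference, Atp6v0d2, a V0 subunit of osteoclasts and alternatively activated macrophages, had log2 changes of 2.32 ± 0.25 with dCA and 2.36 ± 0.25 with BRD-6989, and the cathepsin genes Ctsl and Ctsd had changes of 2.74 ± 0.04 and 2.55 ± 0.04, and of 0.78 ± 0.03 and 0.52 ± 0.03. Tcirg1, the a3 subunit of V0, changed by 0.10 ± 0.13 and -0.33 ± 0.13 without passing. In this fit of the 36 libraries the largest change among the members was 1.10, for Lipa under BRD-6989.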

How the data were processed

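The authors deposited UMI counts and read counts per gene and well from 3′DGE, and reporter read counts from TF-seq; per the submitters' processing notes the tools were BWA and edgeR and the build mm10, with the roles of the tools not given in the sources used here. Values were used as deposited counts, with no prior normalization. The members and gene lists were chosen with earlier results of these data known. Rn45s was removed before library sizes. Wells were summed over 8 times (36 libraries of 227325 to 449471 UMI) for the inhibitors, over 60 to 180 min for the stimuli, and over the 11 stimuli for time (48 libraries, with the NoStim wells). Counts were tested with edgeR 4.0.16 (R 4.3.3; TMM, quasi-likelihood, Benjamini-Hochberg over all genes, threshold 0.05), after filterByExpr with a minimum count of 10, or a mean of 1 UMI per well for single wells. DESeq2 1.42.0 was an alternative. Standard errors are |log2| over the square root of F. Scripts were tested on simulated data. Genes given in full were, per comparison, up to 6 called members by size of change, up to 4 pump members apart, Tfeb, Tfe3, Mitf and 8 fixed members, and up to 3 called genes each way per other list. Alternatives were read counts, no TMM, no filter or a stricter one, the Rn45s share, other times, single wells, no block and leaving out each condition, time or pretreatment. Some genes of the other lists are not reported here.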

Additional observations from a re-analysis of the deposited data

Results flagged for a closer look

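Dixon's test was applied to 93 groups of 8 wells of 1 pretreatment and condition. These covered the summed levels and some of the members given by single wells. In 5 groups a well stood apart from the rest, where chance alone gives about 5% of groups. Atp6v1h, whose DMSO NoStim wells ran from 0 to 496 CPM, was not among the members tested. For the summed level of the 43 members, the highest BRD-6989 well with LPS stood at 19318 CPM (range from 13775, median 15216), the highest BRD-6989 well with TDB at 20355 (from 15201, median 16551) and the highest DMSO well with CpG at 18982 (from 15910, median 16770). The lowest BRD-6989 well with SeV stood at 13723 (median 16660, highest 18162). For Psap, the lowest BRD-6989 well with Poly(I:C) had 1797 CPM (median 2533, highest 2799), which is still above the NoStim wells of that plate, the highest of which had 1385.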

How the results depend on the processing

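Over the alternatives run, the count of called members stayed within 1.5 times its reported value for dCA against DMSO in 22 of 22. The genes behind that count changed: in single wells Atp6v0c, Atp6v1b2 and Lamp2 passed as lower under dCA, and Npc2 was lost. Lipa under dCA and BRD-6989, Lgmn under dCA and Grn between the inhibitors passed in 22 of 22. For BRD-6989 against DMSO the count was 10, where 15.4% of all genes passed. It became 2 with the Rn45s share as a covariate, where 2.17% of all genes passed. In wells of 15 to 45 min it was 5, where 449 of 4859 genes passed. Atp6v1a under BRD-6989 turned to -0.011 with the Rn45s covariate (edgeR adjusted p = 0.993). Between the inhibitors 1 member became 2 by DESeq2 (with Npc2) and 2 in single wells (with Lipa). In NoStim wells, dCA went to 1 with read counts, without TMM or without a filter and ranged from 1 to 2 with 1 time left out; BRD-6989 went to 0 with the Rn45s share as a covariate and ranged from 1 to 2 with 1 time left out. The test of any difference among conditions gave 5 in single wells and 1 in DMSO wells alone, and 1 to 2 with 1 pretreatment left out. Lgmn passed, lower, with Zymosan without TMM (-0.78) and in single wells (-0.80). The slope in stimulated cells gave 1 by DESeq2 and 7 in single wells, where 11.6% of all genes passed in single wells. The interaction and the mean over stimuli stayed at 0 in every alternative run, which does not show that either effect was absent. The causes were not tested. Where no share of all genes stands beside a count, that count was not set against all genes. Without TMM the median of all genes moved by -0.12 with LPS and -0.11 with MDP_LPS (log2). With Poly(I:C) the count was 2 and ranged from 1 to 5 over 13 alternatives, 7 of them within 1.5 times. No paired analysis was possible because the labels give no replicate numbers, but conditions and times, which match across plates, entered as blocks. Without the condition block 6 members passed under dCA and 8 under BRD-6989. Without the time block 2 passed under each inhibitor in NoStim wells, and Grn under BRD-6989 was no longer among them (edgeR adjusted p = 0.0762). Depth limits Ctns, Mcoln1 and Tfeb most.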
